A study of Mus musculus with 4 samples.

Results

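The genes described here are the 10 core genes of MHC class I antigen presentation and the immunoproteasome, chosen by name from the pathway: the heavy chains H2-K1 and H2-D1, their light chain B2m, the peptide transporter genes Tap1 and Tap2, the loading factor Tapbp, the immunoproteasome subunits Psmb8, Psmb9 and Psmb10, and the transactivator Nlrc5. The choice was made with earlier results of these data known. All 10 were found among the 41214 genes of the count table, and all 10 were among the 14554 genes that reached 10 counts in 2 or more libraries and were tested. The study asked how loss of the POZ domain of MIZ-1, a zinc finger transcription factor encoded by Zbtb17, changes transcription in mouse B cells. RNA was sequenced from unstimulated spleen cells that had been selected with magnetic beads for B220, a surface marker of B cells, with 2 libraries from wild type mice (MIZ-1WT) and 2 from mice whose floxed POZ domain is removed by Mb1-Cre (MIZ-1DPOZ). Mb1 is the B cell gene Cd79a, so Cre is made in the B lineage. All lines were on a C57BL/6 background, and the animals of the study were young adults. Whether the MIZ-1WT animals carried Cre is not given in the sources used here. The libraries of a genotype are called biological duplicates, with no statement on pooling, and the p-values measure only the spread between these samples.

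MHC class I molecules show peptides from inside the cell to CD8 T cells. The proteasome cuts proteins into peptides, and its beta subunits with catalytic activity can be exchanged for the interferon-inducible PSMB8, PSMB9 and PSMB10, which form the immunoproteasome. TAP1 and TAP2 pump the peptides into the endoplasmic reticulum, where tapasin, the product of Tapbp, holds the transporter and the empty class I molecule together until a fitting peptide is bound. NLRC5 binds no DNA by itself. It is recruited to class I promoters by factors that sit on a conserved upstream module with a cyclic AMP response element like box and an inverted CCAAT box, and it is known to act on most of the other genes named here. B cells express all of these genes at rest.

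All 10 genes had higher values in both MIZ-1DPOZ libraries than in both MIZ-1WT libraries, and the differences were small. Nlrc5, B2m, Tap1 and Psmb9 passed the test, at 1.24, 1.21, 1.19 and 1.16 times the MIZ-1WT level. H2-K1, H2-D1, Tap2, Tapbp, Psmb8 and Psmb10 did not pass, and none of the 10 was lower. Separation of both libraries of one genotype from both of the other in this direction was seen in 37.2% of all tested genes. An adjusted p under 0.05 was reached in the direction of higher in MIZ-1DPOZ by 21.1% of all tested genes and in the other direction by 18.9%, so a count of 4 of 10 stands against a high background. The median log2 fold change (MIZ-1DPOZ over MIZ-1WT, as throughout) was 0.15 over the 10 genes, with a range from 0.05 to 0.31, beside -0.006 over all tested genes, of which the upper quartile was 0.33. No member reached the log2 fold change of 0.6 that the study used as a limit. Before adjustment 6 of the 10 had a p under 0.05, as did 26.0% of all tested genes in the same direction, and 0 were lower by edgeR, by DESeq2 or before adjustment.

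**Figure D1:**
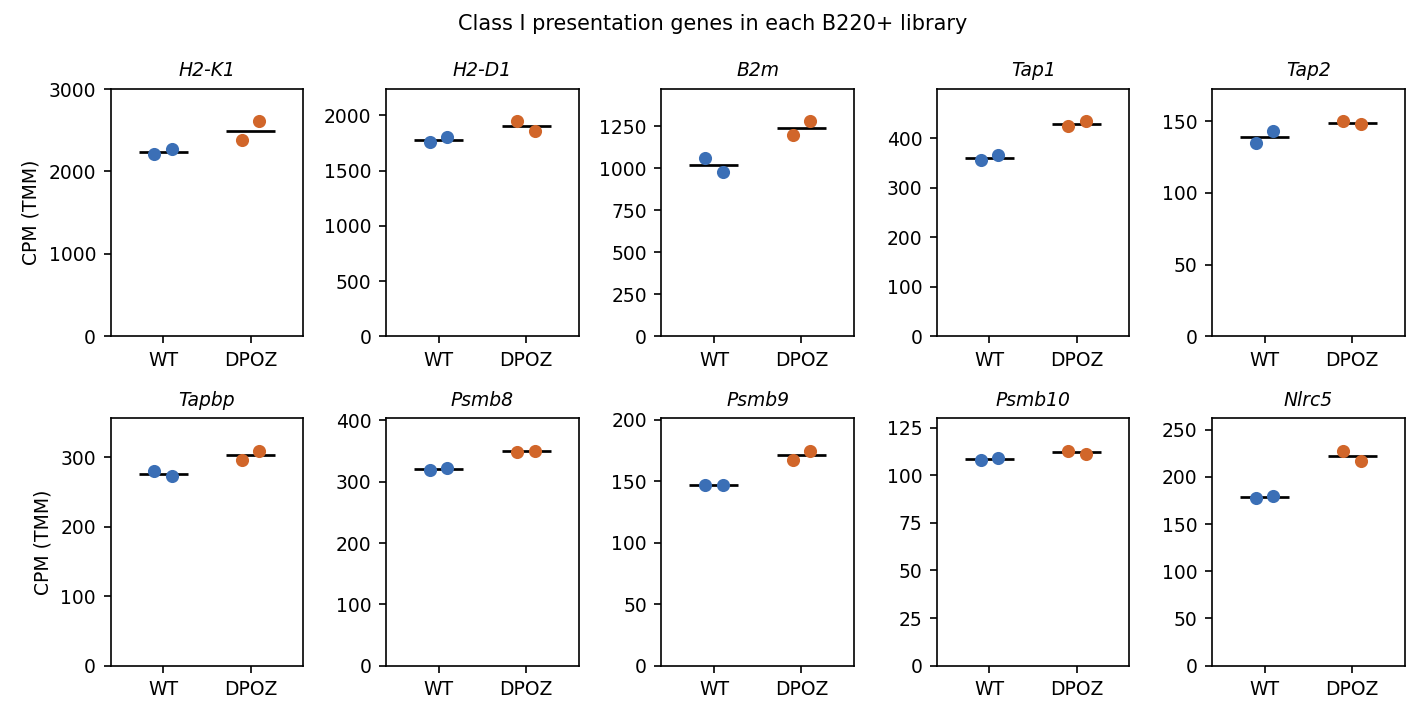
Level of each of the 10 genes in CPM (reads brought to the same total in every library by TMM) in the 2 MIZ-1WT (blue) and 2 MIZ-1DPOZ (orange) libraries, with the mean of each genotype as a line and every axis starting at 0. In each panel both orange points lie above both blue points, by the widest margin relative to the level in Nlrc5, from 178 and 180 to 228 and 217 CPM.

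The upstream sequences of the class I molecule itself are shown because H2-K1, H2-D1 and B2m share an ordered pair of boxes there. They are the 250 bases before the RefSeq start site of GRCm38.p6, in the direction of transcription: chr17:34000348-34000597 on the minus strand for H2-K1, chr17:35262844-35263093 on the plus strand for H2-D1 and chr2:122147437-122147686 on the plus strand for B2m. Capitals mark matches on either strand to GGNNNTTCC (NF-kB-like), GAANNGAA (interferon response-like), TGACG (cyclic AMP response element-like) and CCAAT, of which the reverse complement is ATTGG.
H2-K1: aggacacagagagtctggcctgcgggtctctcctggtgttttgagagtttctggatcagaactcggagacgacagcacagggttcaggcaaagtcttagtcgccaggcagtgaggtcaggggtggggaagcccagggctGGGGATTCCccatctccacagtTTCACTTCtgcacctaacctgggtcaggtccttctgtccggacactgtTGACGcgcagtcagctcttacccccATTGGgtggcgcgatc
H2-D1: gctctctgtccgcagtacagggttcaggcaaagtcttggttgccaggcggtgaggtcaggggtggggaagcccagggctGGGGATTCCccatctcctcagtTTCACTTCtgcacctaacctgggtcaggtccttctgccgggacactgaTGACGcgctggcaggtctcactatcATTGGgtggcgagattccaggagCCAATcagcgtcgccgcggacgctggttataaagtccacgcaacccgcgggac
B2m: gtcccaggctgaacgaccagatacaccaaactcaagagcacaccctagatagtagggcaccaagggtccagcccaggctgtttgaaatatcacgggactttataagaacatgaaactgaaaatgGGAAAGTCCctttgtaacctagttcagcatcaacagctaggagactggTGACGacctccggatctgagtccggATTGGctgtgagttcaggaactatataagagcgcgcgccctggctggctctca
In all 3 sequences TGACG was followed by ATTGG, with 25 bases from start to start. This pair at this spacing, read in either orientation, was present in 30 of 32851 windows of the same length (0.0913%), belonging to 26 of 27025 genes. It was looked for after the sequences had been seen. The single boxes are common, with GGNNNTTCC in 15.7%, GAANNGAA in 17.2%, TGACG in 17.8% and CCAAT in 33.8% of all windows. H2-K1 and H2-D1 hold the same GGGGATTCC and TTCACTTC in the same order, and 166 of 190 aligned bases (87.4%) were identical between them. B2m holds GGAAAGTCC and has no match to GAANNGAA in this window. Before that box its letters gaaactgaaa repeat GAA at a wider spacing, which the pattern leaves out. The missing match therefore does not show that B2m lacks such an element. These matches describe letters and were not measured as bound sites. The table held windows for 8 of the 10 genes. Tap2 and Nlrc5 had none. The RefSeq start site of H2-D1 lies 364 bases from the GENCODE one, so its window falls within the gene as GENCODE annotates it.

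The heavy chains were the most abundant members by reads. H2-K1 (ENSMUSG00000061232, protein coding, chr17:33996017-34000347, minus strand, GRCm38) encodes the K heavy chain, which binds the peptide. Its level was 2210.1 and 2267.7 CPM in MIZ-1WT and 2378.2 and 2608.8 CPM in MIZ-1DPOZ. The genotypes did not overlap, yet the 2 MIZ-1DPOZ libraries differed from each other by more than the lower of them differed from MIZ-1WT. The means were 2238.9 ± 40.7 and 2493.5 ± 163 CPM (SD, n = 2 each), and the log2 fold change was 0.16 (standard error 0.07, 95% interval -0.02 to 0.33, adjusted p = 0.127). Every adjusted p here comes from the quasi-likelihood model of edgeR and is adjusted over all tested genes by Benjamini and Hochberg's method.

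H2-D1 (ENSMUSG00000073411, protein coding, chr17:35262730-35267499, plus strand) encodes the D heavy chain. It measured 1761.4 and 1801.2 CPM in MIZ-1WT and 1947.0 and 1856.1 CPM in MIZ-1DPOZ. Here MIZ-1DPOZ replicate 1 was the higher of its pair, whereas for H2-K1 it was replicate 2. The log2 fold change was 0.09 (standard error 0.06, interval -0.05 to 0.24, adjusted p = 0.243), so a rise of up to 17.9% and no difference both lie within the interval. Both genes share sequence with close copies. Of the 50-base words of their transcripts, 9.63% for H2-K1 and 12.8% for H2-D1 occur in transcripts of other genes. Among these are H2-Q1, H2-Q10, H2-Q7 and each other, so the values of both genes are less certain. By how much the counts are affected was not measured.

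B2m (ENSMUSG00000060802, protein coding, chr2:122147686-122153083, plus strand) encodes beta-2 microglobulin, the invariant light chain without which heavy chains do not reach the surface. Its counts were 46343 and 41185 in MIZ-1WT and 57078 and 56125 in MIZ-1DPOZ, or 1062.4 and 980 against 1199.3 and 1278.8 CPM. The gap between genotypes was wider than the gap within either of them. B2m rose by a log2 fold change of 0.28 (standard error 0.07, interval 0.12 to 0.44, adjusted p = 0.0216), from 1021.2 ± 58.3 to 1239.0 ± 56.2 CPM (SD, n = 2 each). No 50-base word of B2m was shared with another gene, and no exonic base overlapped one.

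Tap1 (ENSMUSG00000037321, protein coding, chr17:34187553-34197225, plus strand) and Tap2 (ENSMUSG00000024339, protein coding, chr17:34203527-34216321, plus strand) encode the subunits of the peptide transporter. Tap1 stood at 355 and 366 CPM in MIZ-1WT and at 424 and 434 CPM in MIZ-1DPOZ. Replicates of each genotype lay close together and the genotypes far apart by comparison, and Tap1 rose with a log2 fold change of 0.25 (standard error 0.05, interval 0.14 to 0.37, adjusted p = 0.0101). Tap2 measured 135 and 143 CPM in MIZ-1WT and 150 and 148 CPM in MIZ-1DPOZ. The upper MIZ-1WT value lay just below the MIZ-1DPOZ pair, and the log2 fold change of 0.10 (standard error 0.05, interval -0.02 to 0.22) had an adjusted p of 0.14. Of the exonic bases of Tap2, 14.1% lie opposite Gm15821 and 4.36% opposite Gm20496, and 11.6% of its 50-base words are shared with other genes, so its value and its ratio to Tap1 are uncertain where the strand setting of the counting is unknown.

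Tapbp (ENSMUSG00000024308, protein coding, chr17:33915899-33929292, plus strand) encodes tapasin. It measured 280 and 273 CPM in MIZ-1WT and 296 and 310 CPM in MIZ-1DPOZ, with no overlap. The log2 fold change was 0.13 (standard error 0.05, interval 0.02 to 0.25) and the adjusted p 0.0701, above the threshold although the unadjusted interval lies above 0. Of its exonic bases 24.9% lie opposite the antisense gene Gm19412 and 4.11% are shared with Zbtb22 on the same strand. The libraries were made with a strand-keeping kit, but the strand setting of the counting is not given in the sources used here, so reads of Tapbp and its antisense partner may have been counted together or called ambiguous.

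Psmb8 (ENSMUSG00000024338, protein coding, chr17:34197721-34201454, plus strand) takes the place of the constitutive subunit PSMB5. Its level was 319 and 323 CPM in MIZ-1WT and 349 and 351 CPM in MIZ-1DPOZ, a close pair in each genotype. The log2 fold change was 0.12 (standard error 0.04, interval 0.02 to 0.23, adjusted p = 0.066), and 14.7% of its exonic bases lie opposite the antisense gene Gm20496.

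Psmb9 (ENSMUSG00000096727, protein coding, chr17:34181987-34187764, minus strand) replaces PSMB6. It measured 147 and 147 CPM in MIZ-1WT and 167 and 175 CPM in MIZ-1DPOZ, and rose with a log2 fold change of 0.22 (standard error 0.05, interval 0.11 to 0.33, adjusted p = 0.0147). Psmb10 (ENSMUSG00000031897, protein coding, chr8:105935735-105938444, minus strand) replaces PSMB7 and lies outside the MHC region. At 108 and 109 CPM in MIZ-1WT and 113 and 111 CPM in MIZ-1DPOZ it had the smallest difference of the 10, 0.05 on the log2 scale (standard error 0.04, interval -0.05 to 0.16, adjusted p = 0.357).

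Nlrc5 (ENSMUSG00000074151, protein coding, chr8:94434356-94527272, plus strand) encodes the transactivator of the class I genes. Its counts were 7763 and 7560 in MIZ-1WT and 10832 and 9527 in MIZ-1DPOZ, or 178 and 180 against 228 and 217 CPM. The difference was several times the gap within either pair, and at 0.31 the log2 fold change was the largest of the 10 (standard error 0.05, interval 0.20 to 0.43, adjusted p = 0.00528). Means were 179 ± 1.35 CPM in MIZ-1WT and 222 ± 7.44 CPM in MIZ-1DPOZ (SD, n = 2 each), a rise of 24.3%.

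**Figure D2:**
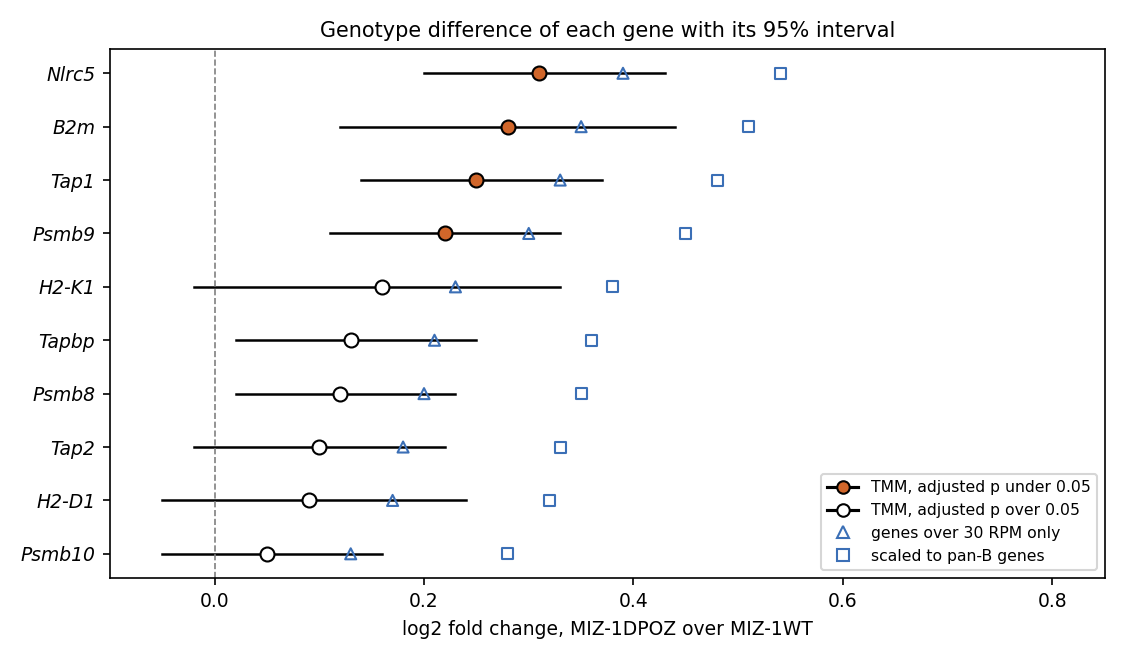
Log2 fold change of each gene, MIZ-1DPOZ over MIZ-1WT, with its 95% interval (circle and line, orange where the adjusted p is under 0.05), beside the values when genes under a mean of 30 RPM (reads scaled to the library total) are left out before normalization (triangles) and when libraries are scaled to pan-B cell genes (squares). The order of the 10 genes runs from 0.05 in Psmb10 to 0.31 in Nlrc5, and every triangle and square lies to the right of its circle.

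How many members passed depended on the scaling and on single libraries. Libraries were also scaled to the pan-B cell genes without Cd79a, which raised all genes by a mean of 0.23 on the log2 scale. All 10 members then passed and their median was 0.37, beside 0.22 for all genes. Under that scaling 39.7% of all tested genes passed as higher, and 844 genes as lower. When genes under a mean of 30 RPM were left out before normalization, all 10 passed with a median of 0.22, beside 24.2% of the 6052 genes then tested, and the values of all genes moved up by 0.08 on average. Without MIZ-1WT replicate 1, 0 of the 10 passed by edgeR, the smallest adjusted p being 0.0574 for Nlrc5, and 4 had an unadjusted p under 0.05, while 9.57% of all genes passed as higher. DESeq2's Wald test was run on all 4 libraries only and called 4, beside 2599 of 21025 genes called higher. Without MIZ-1WT replicate 2, Nlrc5 alone passed, beside 12.0% of all genes. These fits had 1 MIZ-1WT library, whose spread is assumed to be like that of the MIZ-1DPOZ pair. Without MIZ-1DPOZ replicate 1 the count was 5, with Tapbp added, and without MIZ-1DPOZ replicate 2 it was 4, beside 18.3% and 20.9% of all genes.

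Per kilobase of merged exon, so that genes of different length can be compared, the order of levels was the same in both genotypes. B2m came first at 1187.4 CPM per kilobase in MIZ-1WT and 1440.7 in MIZ-1DPOZ, followed by H2-K1 at 762 and 849 and H2-D1 at 691 and 737. A wide step separated these from Psmb8 at 95 and 103, Tapbp at 76.1 and 83.6, Tap1 at 65.8 and 78.4 and Psmb10 at 63.4 and 65.8. Psmb9, at 40.1 and 46.7, and Tap2, at 36.7 and 39.5, came next. Nlrc5 was the lowest, at 21.1 and 26.2. No neighbours in this order overlapped between their libraries. With the length of the longest transcript in place of the merged exons, the order differed between genotypes. H2-K1 and B2m then overlapped in MIZ-1WT, at 1194.7 and 1187.4, whereas B2m was first in MIZ-1DPOZ, at 1440.7 against 1330.6. Tapbp was above Tap1 in MIZ-1WT, at 95.3 against 92.2, and below it in MIZ-1DPOZ, at 105 against 110.

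Ratios of 2 genes within a library do not depend on how libraries are scaled, so they show whether members moved by unequal amounts. They are given per kilobase and without a test, because an exact permutation test of 2 against 2 libraries cannot give a p below 0.333. Psmb9 against its constitutive counterpart Psmb6 was 0.744 and 0.718 in MIZ-1WT and 0.888 and 0.951 in MIZ-1DPOZ, a difference of 0.33 on the log2 scale. Psmb10 against Psmb7 went the other way, from 2.75 and 2.68 to 2.46 and 2.59. Psmb8 against Psmb5 overlapped, at 4.43 and 3.46 in MIZ-1WT and 3.46 and 3.61 in MIZ-1DPOZ, and 54.1% of the 50-base words of Psmb5 are shared with other genes. The 3 ratios of an immunoproteasome subunit to its constitutive counterpart had no common direction.

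**Figure D3:**
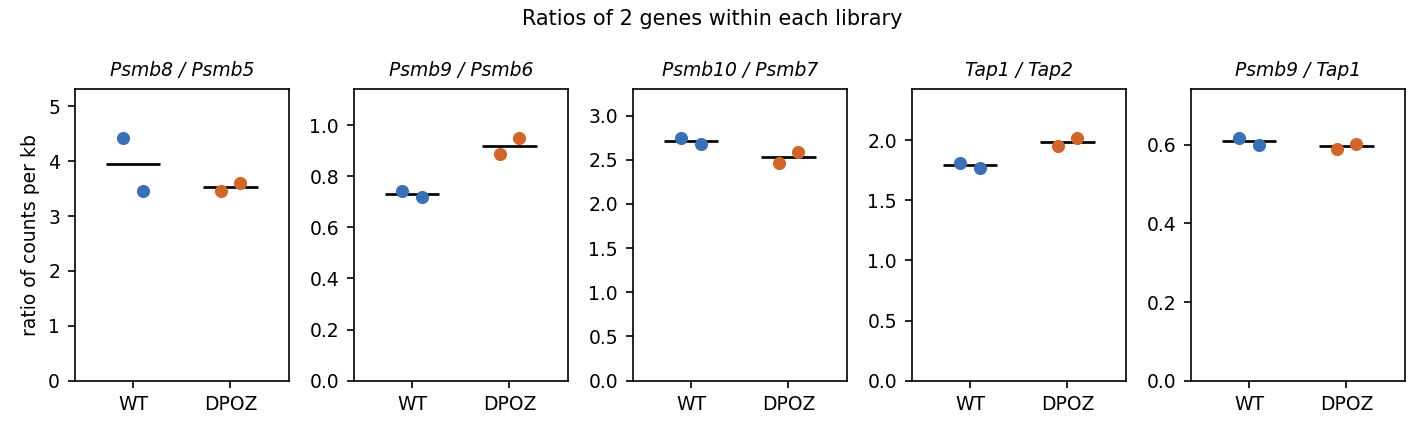
Ratio of counts per kilobase between 2 genes in each MIZ-1WT (blue) and MIZ-1DPOZ (orange) library, with genotype means as lines and axes from 0. Psmb9 to Psmb6 and Tap1 to Tap2 are higher in both MIZ-1DPOZ libraries, Psmb10 to Psmb7 is lower in both, and Psmb8 to Psmb5 and Psmb9 to Tap1 overlap.

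Tap1, Psmb9, Psmb8 and Tap2 lie side by side in the class II region of the MHC. Psmb9 and Tap1 are transcribed away from each other, with GENCODE start sites 211 bases apart, and their exons overlap by 212 bases on opposite strands (3.87% of Tap1 and 5.79% of Psmb9). The stretch between their RefSeq start sites, which lies within Psmb9 as GENCODE annotates it, is shown because the pair both rose. It is chr17:34187331-34187555 of GRCm38.p6, 225 bases read on the plus strand, and capitals mark CCAAT and TGACG.
Psmb9-Tap1: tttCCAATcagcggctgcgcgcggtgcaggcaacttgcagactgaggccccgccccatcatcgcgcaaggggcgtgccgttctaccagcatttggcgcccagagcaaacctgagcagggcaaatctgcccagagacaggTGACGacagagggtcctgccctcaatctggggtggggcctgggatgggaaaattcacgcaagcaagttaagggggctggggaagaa
The Psmb9 to Tap1 ratio overlapped between genotypes, at 0.618 and 0.599 against 0.589 and 0.602. Psmb8 starts 495 bases after the end of Tap1, and Tap2 2072 bases after the end of Psmb8. Psmb8 against Tap1 fell from 1.46 and 1.43 to 1.33 and 1.31, and Tap1 against Tap2 was 1.81 and 1.77 in MIZ-1WT and 1.95 and 2.02 in MIZ-1DPOZ. So Tap1 was higher relative to Psmb8 and Tap2 in both MIZ-1DPOZ libraries, whereas the ratio to the divergent gene Psmb9 did not separate the genotypes.

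**Figure D4:**
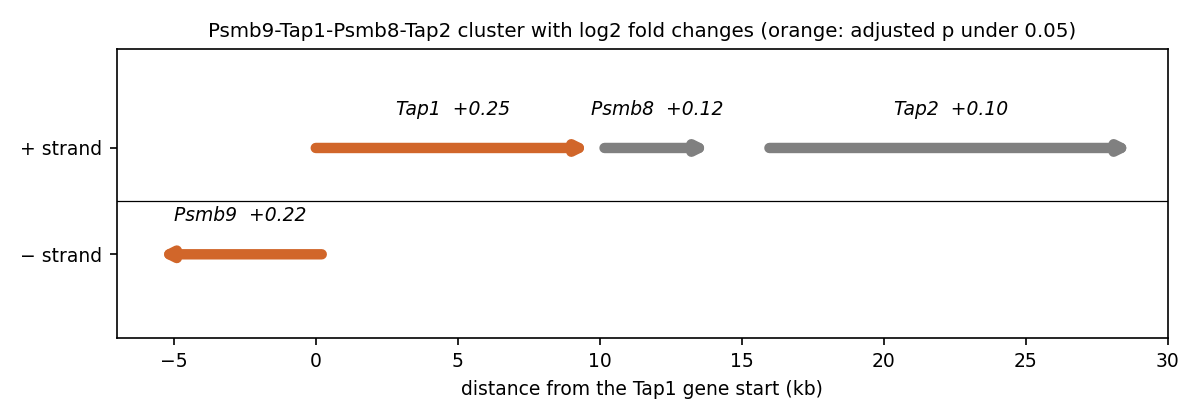
Positions of Psmb9, Tap1, Psmb8 and Tap2 along the chromosome in kilobases from the start of Tap1, as arrows in the direction of transcription, with each log2 fold change (orange where the adjusted p is under 0.05). The divergent pair Psmb9 and Tap1 reached 0.22 and 0.25, the genes further along 0.12 and 0.10.

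Within the class I molecule, H2-K1 against H2-D1 overlapped between genotypes (1.1 and 1.11 in MIZ-1WT, 1.07 and 1.23 in MIZ-1DPOZ), and B2m against H2-K1 was 1.64 and 1.48 in MIZ-1WT and 1.72 and 1.67 in MIZ-1DPOZ. The balance between the class I and class II transactivators shifted most of all ratios computed. Nlrc5 against Ciita was 0.325 and 0.279 in MIZ-1WT and 0.472 and 0.434 in MIZ-1DPOZ, a log2 difference of 0.59. H2-K1 against the class II gene H2-Ab1 was 0.836 and 0.866 against 0.955 and 0.973, a log2 difference of 0.18. These ratios were chosen with the members' values known.

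Of the other class I heavy chains, 10 of the 14 listed were tested, 2 passed as higher and 0 as lower, with a median log2 fold change of 0.20. With libraries scaled to pan-B genes 7 passed as higher. H2-T22, a non-classical chain, had 4682 and 4627 counts in MIZ-1WT and 6673 and 6834 in MIZ-1DPOZ, a log2 fold change of 0.44 (adjusted p = 0.00461). H2-Q4 rose by 0.29 (adjusted p = 0.0172), whereas H2-Q6 had 0.25 (adjusted p = 0.077) and H2-T23, which encodes the Qa-1 chain, 0.06 (adjusted p = 0.396). Much of H2-T22 (53.5% of its 50-base words) and of H2-Q4 (36.4%) is shared with other genes, so these values are less certain than those of the members.

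The 5 other genes whose products pair with B2M had larger changes, with 4 of 5 higher and a median of 0.76. Hfe, which encodes a regulator of iron uptake, had 407 and 442 counts in MIZ-1WT and 2999 and 1749 in MIZ-1DPOZ, a difference of 2.37 on the log2 scale with a standard error of 0.23 (adjusted p = 0.00175). Fcgrt, the neonatal Fc receptor, rose by 0.76 (adjusted p = 0.027) with 1934 and 2089 against 4579 and 2768 counts. Cd1d1, which presents lipids and also stands on the marginal zone list, rose by 0.67 (adjusted p = 0.00172), and Mr1, which presents vitamin B metabolites, by 0.54 (adjusted p = 0.00762). For Hfe and Fcgrt the higher MIZ-1DPOZ library was replicate 1, which also had the higher macrophage marker level. A relation to the macrophage markers was not tested.

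Around the transporter, Erap1, which trims peptides in the endoplasmic reticulum, rose by 0.30 (adjusted p = 0.00528), the only one of 7 loading and trimming genes to pass. The chaperone genes Calr and Canx had log2 fold changes of -0.04 (adjusted p = 0.509) and -0.02 (adjusted p = 0.82), and the list median was 0.05. Under the pan-B scaling all 7 passed as higher, with Calr at 0.19.

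Among 8 proteasome partners, Psme1, a subunit of the PA28 activator, rose by 0.29 (adjusted p = 0.00633) and Pomp, an assembly factor, by 0.21 (adjusted p = 0.0298), and 0 fell. The partner of Psme1 in the activator, Psme2, had 0.07 (adjusted p = 0.251), and Psmb6 had -0.11 (adjusted p = 0.116). Scaled to pan-B genes 7 of the 8 passed as higher, Psmb6 excepted. Of 11 other subunits of the proteasome core, Psmb2 (0.41), Psma1 (0.30), Psma5 (0.21) and Psmb4 (0.18) rose, 0 fell, and the median was 0.09. With the pan-B scaling 10 of the 11 passed as higher. Of 6 cytosolic peptidases, Lap3 rose by 0.92 (adjusted p = 0.00321), Thop1 by 0.39 and Blmh by 0.28, whereas Nrd1 fell by 0.24 and did not pass when scaled to pan-B genes (-0.01) or with the filter at 30 RPM (-0.16).

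The 18 genes of class I transcription did not follow the members. There 11 were lower and 1 higher, with a median of -0.19, although scaled to pan-B genes the count became 4 lower and 3 higher with a median of 0.04, and with the filter at 30 RPM it was 3 lower and 1 higher of 14 tested. Rfxank, a subunit of the RFX complex that recruits NLRC5, had 1247 and 1175 counts in MIZ-1WT and 774 and 771 in MIZ-1DPOZ, a log2 fold change of -0.74 (adjusted p = 0.00193) that was -0.51 and still passed when scaled to pan-B genes. Nfya, a subunit of the CCAAT-binding NF-Y, went from 3740 and 3080 to 2174 and 2186 counts, also -0.74 (adjusted p = 0.00318) and -0.51 with the pan-B scaling. Irf2 had -0.65 (adjusted p = 0.0389), which became -0.43 with an adjusted p of 0.0863 under that scaling.

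Ciita, the class II transactivator, had -0.28 (adjusted p = 0.0452), Irf8 -0.19 (adjusted p = 0.0254), Nfkb1 -0.20 (adjusted p = 0.0233) and Jak1 -0.08 (adjusted p = 0.4). Scaled to pan-B genes none of these 4 passed, nor with the filter at 30 RPM, and under the pan-B scaling Irf8, Nfkb1 and Jak1 turned positive. The single gene that rose was Ifngr1, a chain of the interferon gamma receptor, by 0.50 (adjusted p = 0.00828).

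Among 10 MHC class II presentation genes 2 were higher and 2 lower, with a median of -0.02. The most abundant, Cd74 (-0.07), H2-Aa (-0.02), H2-Ab1 (-0.03) and H2-Eb1 (0.01), did not pass, at adjusted p of 0.507, 0.798, 0.776 and 0.901. H2-Oa (0.30) and H2-DMa (0.14) rose, and H2-Ob (-0.38) and H2-DMb1 (-0.28) fell. These 4 encode the accessory molecules DO and DM. After scaling to pan-B genes 6 passed as higher and H2-Ob alone as lower. Among 19 interferon-stimulated genes 7 were higher and 1 lower, with a median of 0.53, and Rtp4 (1.05), Cxcl10 (1.04), Isg15 (0.85) and Oasl2 (0.67) rose the most of those that passed. With the pan-B scaling 16 were higher and 0 lower.

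**Figure D5:**
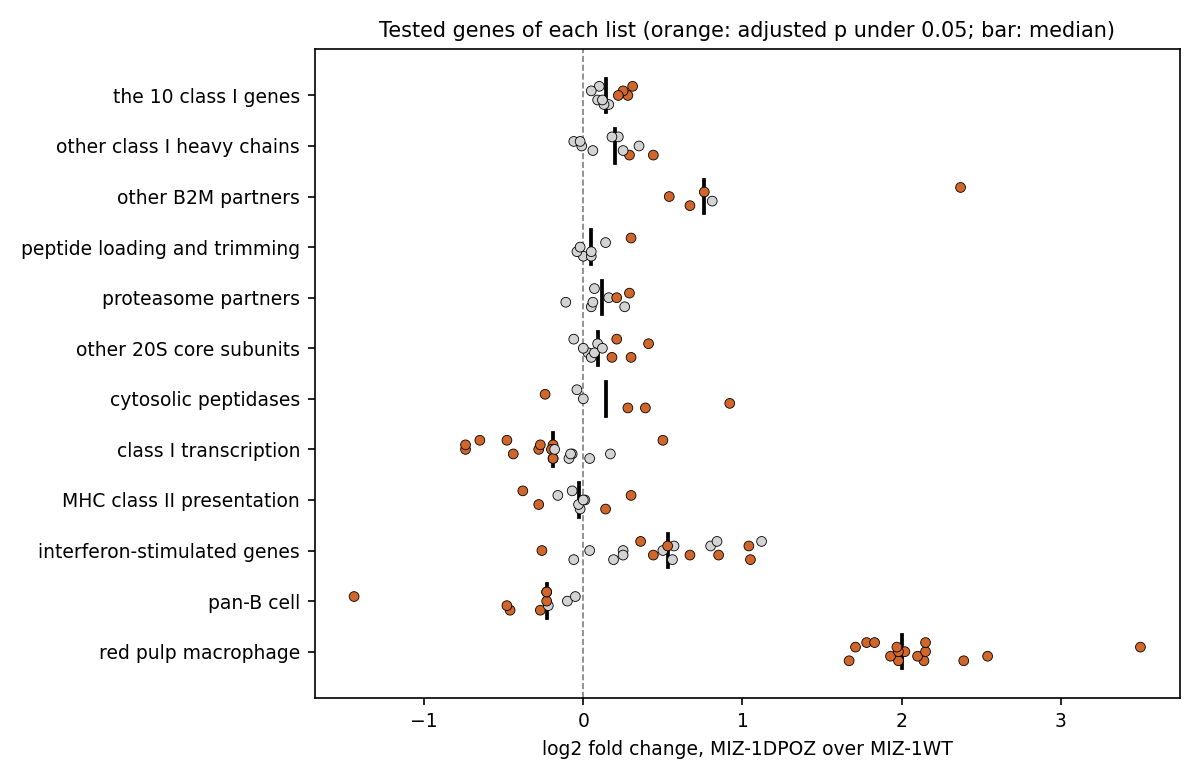
Log2 fold change of each tested gene of the class I genes, of 9 related gene lists and of the pan-B and red pulp macrophage markers, with orange points where the adjusted p is under 0.05 and a bar at each list's median. The 10 class I genes lie in a narrow band from 0.05 to 0.31, the class I transcription list has a median of -0.19 and the macrophage markers one of 2.00.

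Each library held between 43026814 and 46387209 counts on genes. Reads outside genes made up 25.5% to 27.2% of the table in MIZ-1WT and 21.1% to 21.6% in MIZ-1DPOZ. The targeted gene Zbtb17 had 2087 and 1946 counts in MIZ-1WT and 1774 and 1669 in MIZ-1DPOZ, counted over the whole gene and not over the deleted part. Other cells moved with genotype: 16 of 16 red pulp macrophage markers were higher in MIZ-1DPOZ, their summed level going from 952 to 1262.3 CPM in MIZ-1WT to 3572.1 to 5645.8 CPM in MIZ-1DPOZ, with 0 of the 16 at 0 in all libraries. Marginal zone markers (8 of 8 higher, from 2708.4 to 2723.0 CPM in MIZ-1WT and from 3430.1 to 3692.6 CPM in MIZ-1DPOZ) and plasma cell markers (5 of 6 higher, 879 to 1196.3 CPM in MIZ-1WT and 2539.9 to 2709.6 CPM in MIZ-1DPOZ) were also higher. Pan-B genes were high in every library, from 11104.4 to 13580.6 CPM, with 7 of 10 lower in MIZ-1DPOZ. Among them was Cd79a, the gene whose promoter drives Cre, with -1.44. With the pan-B scaling 2 of the 10 were lower and 1 higher, but the genes other than Cd79a themselves set that scale. Y chromosome genes separated the genotypes too, at 844 to 848 CPM in MIZ-1WT and 38.1 to 39.3 CPM in MIZ-1DPOZ. They were low but not absent in MIZ-1DPOZ, where Ddx3y had 680 and 622 counts against 15840 and 14896 in MIZ-1WT. The sex of the animals is not in the sample labels, and an effect of sex and one of genotype cannot be told apart.

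The part of these cell type shifts in the members' differences was not tested, and in bulk samples a changed share of a cell type and a changed amount of RNA per cell cannot be told apart. Between the MIZ-1DPOZ libraries the summed macrophage level was higher in replicate 1 by 0.66 on the log2 scale. The summed level of the 10 members was higher in replicate 2, at 7489.8 against 7251.6 CPM. Whether these levels are related was not tested. Singly, 6 members were higher in replicate 2 and 4 in replicate 1, with log2 gaps (replicate 1 minus replicate 2) from -0.13 for H2-K1 to 0.07 for H2-D1 and Nlrc5. In MIZ-1WT the members summed to 6554.8 and 6588.5 CPM.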

How the data were processed

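RNA of splenic B220+ cells was rRNA-depleted and sequenced from both ends with a stranded kit. The authors trimmed reads, mapped them to GRCm38 (mm10) and counted them per Ensembl gene with HTSeq, and deposited raw counts, neither normalized nor pooled. The submitters' processing notes name TopHat2 version 2.1.0. The strand setting of the counting and the Ensembl release are not given in the sources used here. HTSeq summary lines entered neither library sizes nor tests. Besides reads outside genes they held ambiguous reads (0.281% to 0.302%) and reads without a unique alignment (42.8% to 44.1%).

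Samples were grouped by labelled genotype. Genes that reached 10 counts in 2 or more libraries entered edgeR version 4.0.16 in R version 4.3.3 (TMM, quasi-likelihood test without covariates, Benjamini-Hochberg adjustment over 14554 genes, threshold 0.05). CPM are counts brought to the same total in each library with the TMM factor, RPM without it, and values per kilobase divide them by merged exon length in the GENCODE annotation of GRCm38, which named 40254 of 41214 genes. The procedure was tested on simulated counts with the same dispersion for every gene. The known changes there were larger than those of the members, so differences as small as theirs were not covered. Alternatives were DESeq2's size factors, DESeq2 version 1.42.0, no count filter, a mean of at least 30 RPM and scaling to pan-B genes without Cd79a. Others were a replicate block, removal of immunoglobulin segments or of Xist and Y genes, and leaving out each library. Shared sequence was measured as 50-base words of GENCODE transcripts, and upstream windows came from RefSeq for GRCm38.p6.

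The 10 genes, gene lists and ratios were chosen with earlier results of these data known. Named from each related gene list were genes past the threshold with an absolute log2 fold change of 0.6 or more, and up to 4 others with the highest CPM. The cell type markers are given as counts and levels, and not all of those past the limit are named. Further called genes of short lists were named after their values were seen. The nearest profiles were the 5 protein-coding genes over 10 CPM with the smallest Euclidean distance, not all of which are reported here.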

Additional observations from a re-analysis of the deposited data

How the results depend on the processing

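Every one of the 10 genes kept a positive log2 fold change under all 12 alternatives. Over genes and alternatives, 100 values kept their side of the threshold, 13 gained a call and 7 lost it, all 7 in fits without a MIZ-1WT library. The count of 4 and the genes called were the same with DESeq2's size factors, DESeq2's Wald test, no filter, and immunoglobulin segments or Xist and Y genes removed. The genes called higher over all were 2599 of 21025 with the Wald test and 3079 of 21025 with no filter. They were 3096 of 14554 with DESeq2's size factors, 3045 of 14355 without immunoglobulin segments and 3066 of 14544 without Xist and Y genes. Removing Xist and Y genes takes out only those genes, so the same result there says nothing about sex. With genes over a mean of 30 RPM, 10 members passed with a median of 0.22, beside 24.2% of genes called higher and 2746 called in all. Scaled to pan-B genes 10 passed with a median of 0.37, beside 39.7% of all genes called higher. Leaving out a library gave 0 to 5 members, a median of 0.14 to 0.20, and 2222 to 5581 called genes beside 5822. Replicate numbers mark no shared animal, and deviations of same-numbered libraries correlated at -0.0688. With a replicate block the same 4 were called (Nlrc5 0.31, adjusted p = 0.0162 by edgeR), beside 2633 of 14554 genes called higher and 4732 called in all. Among the members the smallest called difference was 0.22 and the largest not called 0.16 on the log2 scale, and their spread between replicates was 0.043.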

Other observations

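The genes whose profiles over the 4 libraries lay nearest to the mean profile of the 10 class I genes were sought among 8490 protein-coding genes with a mean of at least 10 CPM. Among the nearest were Acaa2, an enzyme of mitochondrial fatty acid oxidation, Ndufa11, a subunit of respiratory complex I, Atp5g3, a subunit of ATP synthase, and Llph. Atp5g3 measured 77.5 and 77.9 CPM in MIZ-1WT and 87.4 and 89.4 CPM in MIZ-1DPOZ (log2 fold change 0.19, adjusted p = 0.0257 by edgeR), at a distance of 0.016 in log2 CPM. Acaa2, Ndufa11 and Llph each had a log2 fold change of 0.17 and did not pass, at adjusted p of 0.0574, 0.11 and 0.0943. With 4 libraries many genes share such a profile, and the likeness is a description.

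Markers of other blood cells were mixed. T cell genes were low in every library, with a summed level from 62.9 to 87.8 CPM, and 2 of 10 were higher in MIZ-1DPOZ, one of them Cd4 (log2 fold change 1.05, adjusted p = 0.00699). NK cell markers summed to 57.9 to 66.6 CPM, with 2 higher and 1 lower. Neutrophil markers were at 5.76 to 21.7 CPM, with 0 of 6 tested lower and 2 higher, Ltf (log2 fold change 3.10, adjusted p = 0.00726) and Csf3r (1.53, adjusted p = 0.00883). Erythroid markers were at 33 to 97.5 CPM, with 0 of 7 passing by edgeR in either direction, and 0 before adjustment. Conventional dendritic cell markers had 3 higher and 2 lower, plasmacytoid ones 1 higher and 1 lower, and follicular B cell markers 3 of 5 lower and 0 higher. Scaled to pan-B genes, NK cell markers had 2 higher and 0 lower, neutrophil ones 3 higher, plasmacytoid ones 1 higher and 0 lower, and follicular ones 3 lower and 1 higher.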
